A study of Mus musculus with 20 samples.

Results

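The genes described are 6 components of the Hedgehog signalling pathway: the transcription factors Gli1, Gli2 and Gli3, the receptor Ptch1, the signal transducer Smo and the GLI-binding inhibitor Sufu. They are 6 of the 19269 genes in a count table from mouse preoptic area, and were chosen by the measured counts of Gli2 and Gli3, which were high in immunoprecipitates made without the tag. That comparison, immunoprecipitate against supernatant in mice lacking the tag, is therefore given for these 6 genes as values only, with no test. All 6 genes were in the table and all 6 passed the filter on low counts in every fit.

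The study used translating ribosome affinity purification (TRAP), in which a GFP-tagged ribosomal protein, L10a, is switched on by Cre recombinase in one cell type and ribosomes are pulled down with their mRNA. Here Cre was driven by GnRH, so that the tag marks the few neurons that make gonadotropin-releasing hormone. Punches of the preoptic area of the hypothalamus came from female mice, either young (day 21) or adult (70 to 150 days, in diestrus), and each library is a pool of 3 to 4 mice. The negative groups lack the tag: young pools 1 and 2 came from wild-type mice, young pool 3 from mice with floxed L10a-GFP only, and both adult pools from mice with GnRH-Cre only. Among them, age cannot be told apart from genotype. Each of these 5 pools gave an immunoprecipitate (IP) and the depleted supernatant left after it, and 1 adult pool with both GnRH-Cre and L10a-GFP (GFP-positive) gave the same pair. Supernatants of 4 further pools of the GFP-positive genotype, 2 young and 2 adult, came from an earlier series and were sequenced in a first and again in a second set. These are called prior pools, and the other 16 libraries, their repeats included, form the second set.

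Hedgehog ligands bind Ptch1, which otherwise keeps Smo inactive. Active Smo accumulates in the primary cilium and releases the GLI proteins from Sufu and from kinases that mark them for processing. Gli2 acts mainly as an activator and Gli3 mainly as a repressor of target genes, and Gli1 and Ptch1 are themselves targets, so their mRNA is widely read as a sign of pathway activity. In the adult brain Gli1, Gli2 and Gli3 mRNA is best known from astrocytes and neural stem cells.

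The 3 Gli genes are paralogs that share zinc fingers, so the stretches in which their transcripts are identical are shown, since reads falling there could be assigned to the wrong gene. Capitals mark the longest run of identical bases for each pair, with 12 flanking bases on each side, from the longest coding transcripts of the GENCODE M21 annotation of GRCm38 (the assembly also called mm10). For Gli2 and Gli3 this run was 25 nt, at transcript positions 1688 to 1712 in Gli2 and 1701 to 1725 in Gli3.
Gli2: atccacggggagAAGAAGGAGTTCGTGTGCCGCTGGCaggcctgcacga
Gli3: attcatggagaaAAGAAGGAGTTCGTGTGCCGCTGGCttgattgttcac
For Gli1 and Gli2 the longest run was 23 nt, again within the coding part of both transcripts.
Gli1: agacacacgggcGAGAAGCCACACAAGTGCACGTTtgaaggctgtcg
Gli2: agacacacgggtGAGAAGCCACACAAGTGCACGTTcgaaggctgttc
For Gli1 and Gli3 it was 14 nt.
Gli1: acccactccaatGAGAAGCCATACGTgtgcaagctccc
Gli3: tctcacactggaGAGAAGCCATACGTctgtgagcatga
Each of these runs was shorter than the fragment length of 120 nt that the labels give, so that no fragment of that length can match 2 of these transcripts without a mismatch.

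On GRCm38, Gli1 lies at chr10:127329882-127341974 on the minus strand (13 exons, longest coding transcript 4057 nt). Gli2 spans chr1:118834132-119053619 on the minus strand (14 exons, 6637 nt) and Gli3 chr13:15463235-15730026 on the plus strand (15 exons, 8170 nt). Ptch1 is on the same chromosome as Gli3, at chr13:63508328-63573598 on the minus strand (23 exons, 7725 nt). Smo lies at chr6:29735503-29761365 (12 exons, 3779 nt) and Sufu at chr19:46396896-46488804 (12 exons, 4522 nt), both on the plus strand. Exons of Gli1 overlap 62 nt of Arhgap9 and 265 nt of Gm47200 on the other strand, and exons of Gli3 overlap 188 nt of Gm6556. Reads within these overlaps cannot be told apart here, and no source used here states whether the counting used strand.

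Libraries held 27.75 to 50.52 M counts. Levels are given in counts per M (CPM), scaled with edgeR's trimmed mean of M values (TMM) over all 20 libraries. A floor of 3 counts corresponded to 0.0588 to 0.109 CPM, and this floor, like the intervals below, covers counting error only. The tag worked in the GFP-positive pool, where Gnrh1 stood at 1457 CPM in the IP and 27.3 CPM in the supernatant. In the 5 negative IPs Gnrh1 lay between 7.85 and 33.5 CPM. Levels come from bulk tissue, in which fewer cells of a type and less RNA per cell cannot be told apart.

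In the supernatant, Smo was the most abundant of the 6 genes and Gli2 the least. Per kb of the longest coding transcript, the mean over 10 second-set supernatants was 3.28 ± 1.10 CPM per kb for Smo (SD, n = 10). Sufu followed at 1.51 ± 0.446 and Ptch1 at 0.703 ± 0.186 CPM per kb (SD, n = 10). The Gli genes came last, with Gli1 at 0.437 ± 0.177, Gli3 at 0.271 ± 0.0919 and Gli2 at 0.124 ± 0.0600 CPM per kb (SD, n = 10). The ranges of all neighbours in this order overlapped: Smo ran from 1.93 to 5.82, Sufu from 0.683 to 2.04 and Ptch1 from 0.376 to 1.06 CPM per kb. Gli1 ran from 0.217 to 0.681, Gli3 from 0.0989 to 0.411 and Gli2 from 0.0690 to 0.223 CPM per kb. The order depends on the transcript assumed. Per kb of the shortest coding transcript, Ptch1 (6.72 CPM per kb) and Gli3 (4.75 CPM per kb) came first, and Gli2 (1.03 CPM per kb) was again the lowest.

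In the negative IPs the order of these levels was different. Gli3 stood at 5.70 ± 2.41, Smo at 5.38 ± 3.87 and Gli2 at 5.16 ± 1.59 CPM per kb of the longest coding transcript (SD, n = 5). Sufu (2.73 ± 1.48), Ptch1 (1.61 ± 1.12) and Gli1 (0.226 ± 0.313) followed, in the same unit (SD, n = 5). In this unit Gli2 and Gli3 were at the bottom of the order in the supernatant and at the level of Smo in the IP. Gli3, Smo and Gli2 did not differ in the IP beyond their spread. Since Gli2 and Gli3 were chosen for high counts in these IPs, nothing is read from their change of place.

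**Figure D1:**
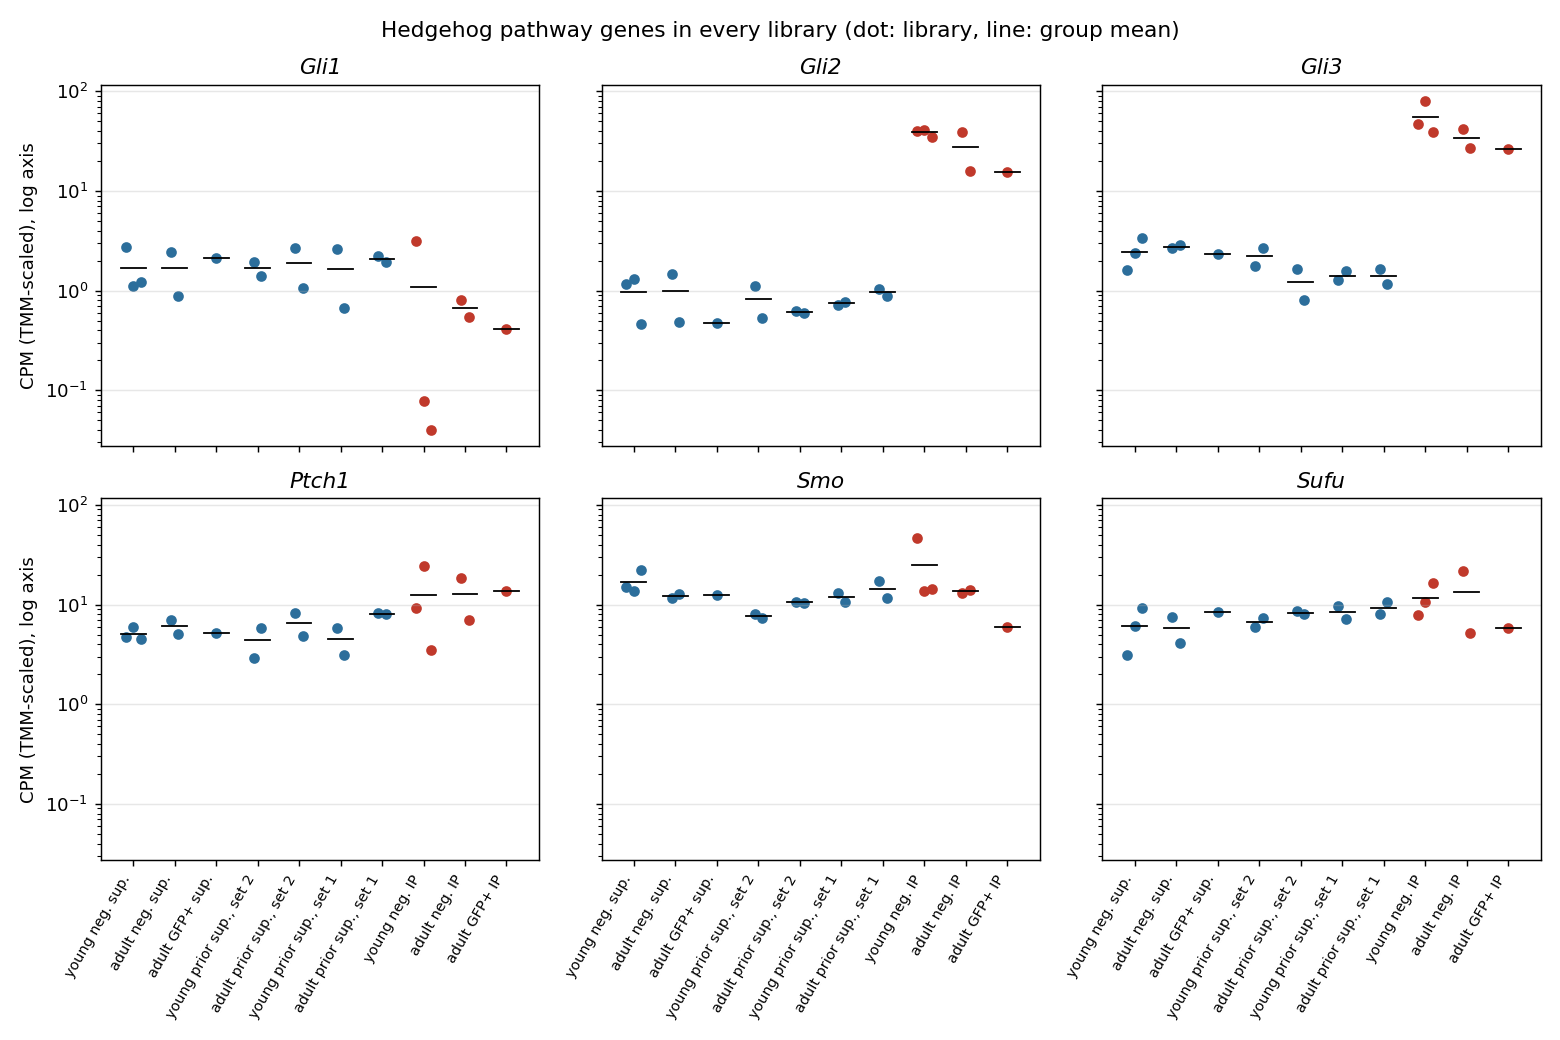
Each panel plots 1 gene in all 20 libraries, in TMM-scaled CPM on a log axis, with blue dots for supernatants, red dots for IPs and a black line for each group's mean ("sup." is supernatant, "neg." negative). All 6 IP libraries of Gli2 (15.6 to 41.4 CPM) and Gli3 (26.4 to 79.4 CPM) lie above all 14 supernatants, while the IP and supernatant dots of the other 4 genes overlap. Gli2 and Gli3 were chosen for high counts in the negative IPs, and the share of all genes without such overlap was not counted.

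Gli2, the main activator of the pathway, was the member with the largest difference between IP and supernatant without the tag. The young negative IPs held 40.3, 41.4 and 34.9 CPM and the adult ones 38.8 and 15.9 CPM. The supernatants of the same pools held 1.16, 1.31 and 0.458 CPM in young and 1.48 and 0.486 CPM in adults. Every IP was above every supernatant, and within the IPs adult pool 2 stood below the other 4. On the raw scale these were 619 to 2055 counts per IP library and 15 to 75 counts per supernatant library. The ratio of IP to supernatant CPM was 34.6, 31.5 and 76.3 in young pools 1 to 3, and 26.2 and 32.8 in adult pools 1 and 2. The adult pools are paired by title here, but the descriptions number their supernatants otherwise, so that this pairing is in doubt. With each adult IP set against the other adult supernatant, a pairing chosen after the data were seen, the ratios of adult pools 1 and 2 would be 79.8 and 10.8. Of the 3 young pools, the highest ratio belonged to the one with the lowest supernatant level. The fitted log2 fold change was 5.01 (SE 0.45), a 32.2-fold difference.

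Gli3, the main repressor, showed the same direction from a higher supernatant level. Its level was 46.5, 79.4 and 38.8 CPM in the young negative IPs and 41.5 and 26.9 CPM in the adult ones. Supernatant levels were 1.60, 2.41 and 3.36 CPM in young pools and 2.67 and 2.85 CPM in adult pools. Here too every IP lay above every supernatant. The ratios within pools were 29.1, 32.9 and 11.6 in young and 15.6 and 9.43 in adult pools (14.5 and 10.1 with the adult supernatants paired the other way), a spread of over 3-fold. The fitted log2 fold change was 4.03 (SE 0.32), or 16.3-fold. These 2 genes were the ones of the 6 whose negative IP and supernatant values did not overlap. They were chosen for high counts in these IPs, and the share of all genes without such overlap was not counted. Over all genes tested, 32.1% passed the threshold in this comparison (edgeR's quasi-likelihood test, adjusted p under 0.05) and 15.8% passed it with a higher level in the IP. Since this contrast chose the members, nothing is read from the members' count against those shares.

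Gli1, the third factor and a target of the pathway, did not follow its paralogs. Its negative IP levels were 3.12, 0.0774 and 0.0401 CPM in young pools and 0.806 and 0.540 CPM in adult pools. The supernatants of these pools lay at 2.76, 1.13 and 1.22 CPM in young and 2.47 and 0.880 CPM in adults. Young pools 2 and 3 rested on 3 and 2 counts in the IP, at or under the floor, with 95% counting intervals of 0.0160 to 0.226 and 0.00486 to 0.145 CPM (exact Poisson). Young pool 1, by contrast, had 159 counts, and its IP lay above every supernatant of the series. The fitted log2 difference was -1.02 (SE 1.11), and -3.08 without the IP of young pool 1.

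Ptch1, the ligand receptor and also a target, had negative IP levels of 9.15, 24.4 and 3.49 CPM in young pools and 18.3 and 6.95 CPM in adult pools. Its supernatants lay between 4.52 and 7.05 CPM, so that the lowest IP was below all of them and 3 IPs were above all of them. Within pools the ratio was 1.92, 4.12 and 0.773 in young and 2.60 and 1.37 in adult pools (3.61 and 0.986 with the other pairing), and the fitted log2 difference was 1.15 (SE 0.51).

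Smo, the transducer, had ratios of IP to supernatant of 0.985, 1.13 and 1.12 in 3 of the 5 pools, 0.659 in young pool 3 and 3.07 in young pool 1. The IP level was 46.5 CPM in young pool 1 and between 13 and 14.5 CPM in the other 4, against 11.5 to 22 CPM in their supernatants. Young pool 1 was also the pool with the highest Gli1 IP. Its IP had the highest summed level of 12 astrocyte markers (2320 CPM, against 1176 to 1840 CPM in the other negative IPs and 1505 to 1665 CPM in the negative supernatants). Among these markers Aldoc alone held 616 to 869 CPM and Gfap 168.5 to 781 CPM in the negative IPs, so the sum largely follows Aldoc and Gfap. None of the 12 astrocyte markers was at 0 in any library. The part of astrocyte RNA in the Smo and Gli1 values was not tested. Without that library the fitted log2 difference of Smo went from 0.33 (SE 0.35) to -0.08.

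Sufu, which holds GLI proteins in the cytoplasm, was higher in the IP than in the supernatant of the same pool in the 3 young pools, and in the adult pools as paired by title. The IPs held 7.82, 10.5 and 16.3 CPM in young and 21.8 and 5.22 CPM in adult pools, and the supernatants 3.09, 6.03 and 9.24 CPM in young and 7.54 and 4.07 CPM in adult pools. Across pools the values of the fractions overlapped. The ratios within pools ran from 1.28 to 2.89, but with the adult supernatants paired the other way those of adult pools 1 and 2 would be 5.36 and 0.693. The fitted log2 difference was 1.04 (SE 0.48), or 0.34 without the IP of adult pool 1.

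**Figure D2:**
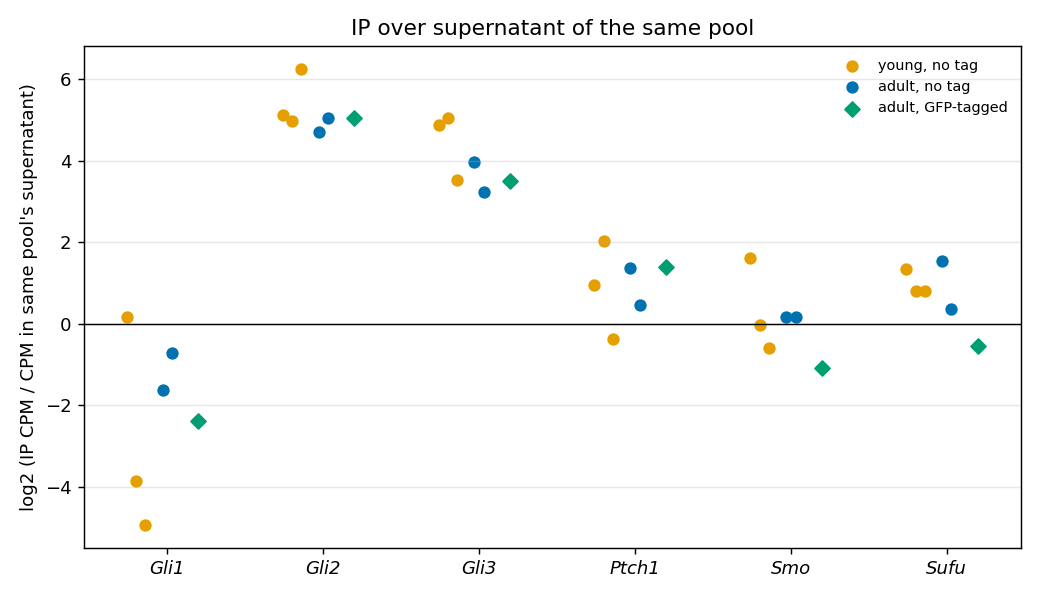
The log2 ratio of IP CPM to that pool's supernatant CPM is plotted for each gene, with adult pools paired by title, with orange dots for young and blue dots for adult pools without the tag and a green diamond for the GFP-positive pool. Gli2 and Gli3 lie well above 0 in all 6 pools, Gli1 is below 0 in 5 of 6, and the other 3 genes scatter around or somewhat above 0.

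The spread of these values was wider in the IP than in the supernatant for most members, as it was for genes in general. Among all genes with a mean log2 CPM between 3 and 5, the median SD of log2 CPM was 0.53 over the negative IPs and 0.23 over the negative supernatants. Ptch1 had an SD of 1.11 in the IP and 0.26 in the supernatant, and Smo 0.78 and 0.36, on the same log2 scale. Gli3 had 0.56 and 0.39. Gli2 went the other way, with an SD of 0.58 in the IP, where it was abundant, and 0.77 in the supernatant, where it rested on few counts.

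Both ages showed the difference. In young pools the fitted log2 fold change between IP and supernatant was 5.27 (SE 0.57) for Gli2 and 4.44 (SE 0.40) for Gli3, where 13.0% of all genes tested were called higher in the IP. In adult pools it was 4.75 (SE 0.68) for Gli2 and 3.62 (SE 0.47) for Gli3, where 6.39% of genes were called higher. The change in this difference with age, adult minus young, was -0.51 (SE 0.77) for Gli2 and -0.82 (SE 0.56) for Gli3. Over all genes edgeR called 0% for this change, with 1068 at an unadjusted p under 0.05 and 118 called by DESeq2. Within the negative IPs, 0.727% of genes were called between adult and young pools, which also differ in genotype. The adult and young IP values of each of the 6 members overlapped.

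Transcript length moved with the difference between IP and supernatant over all genes, and Gli2, Gli3 and Ptch1 are among the long ones. With genes in 10 bins of equal size by length, in the longest bin (6586 nt or more) the median log2 fold change was 0.80 and 53.8% of genes were called higher, against a median of -0.66 and 0.746% in the shortest bin. Against a smoothed trend on length, the log2 fold change of Gli2 was 4.49 above the trend, that of Gli3 3.31 above and that of Ptch1 0.48 above. Among the shorter transcripts, Sufu was 0.91 and Smo 0.33 above the trend, and Gli1 was 1.06 below it (-1.06).

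**Figure D3:**
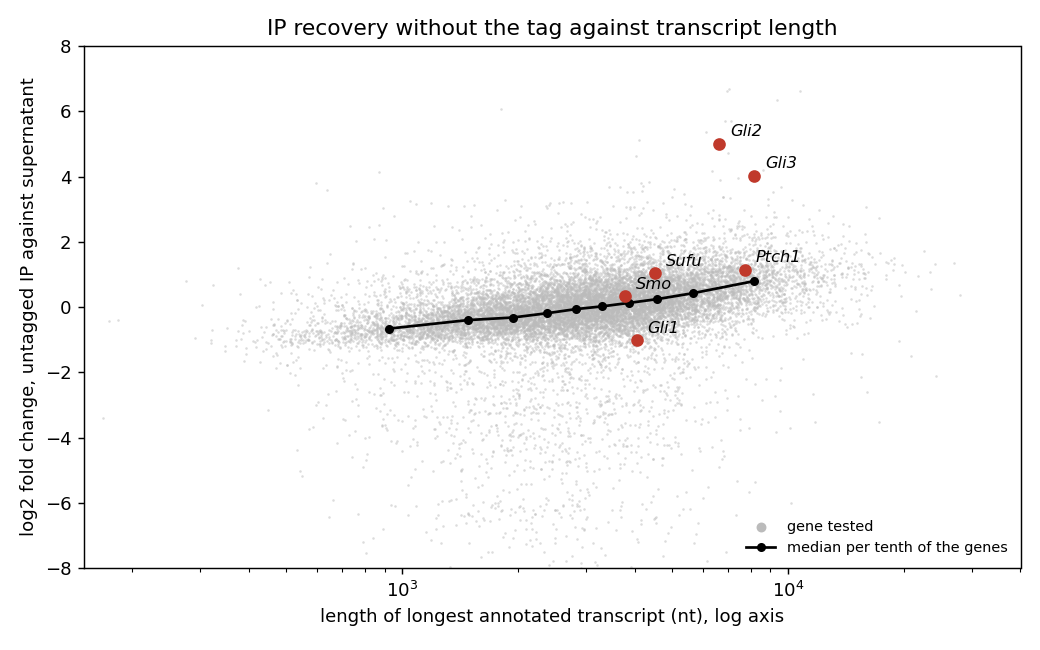
Every gene tested is plotted by the length of its longest annotated transcript (nt, log axis) and its log2 fold change between untagged IP and supernatant, with a black line for the median of each of 10 bins by length and red dots for the 6 members. Of 16094 genes with an annotated length, 32 fall outside the axes. The line climbs from -0.66 to 0.80, and the points of Gli2 and Gli3 lie at 5.01 and 4.03.

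The GFP-positive pool was not used to choose the members, and it has no replicate, so its values carry only counting intervals. Gli2 stood at 15.6 CPM in its IP (754 counts) and 0.473 CPM in its supernatant (13 counts), a ratio of 33.0 (95% exact interval 19.2 to 62.3). Gli3 stood at 26.4 and 2.33 CPM, a ratio of 11.3 (8.83 to 14.8). As background, 13712 genes were at 1 CPM or more in this IP and above 0 in its supernatant. Of these genes 13.1% were at least 2-fold higher in the IP, and their median log2 ratio was 0.11.

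Ptch1 held 13.6 CPM in the tagged IP and 5.20 CPM in its supernatant, a ratio of 2.62 (2.19 to 3.17). The other 3 genes were lower in the tagged IP than in its supernatant. Smo held 5.94 against 12.5 CPM, a ratio of 0.475 (0.405 to 0.557). Sufu held 5.75 against 8.36 CPM, a ratio of 0.688 (0.576 to 0.823). Gli1 held 0.414 against 2.15 CPM, a ratio of 0.193 (0.11 to 0.325). In the negative pools paired by title, the Smo ratio ran from 0.659 to 3.07 and the Sufu ratio from 1.28 to 2.89.

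The series text names the GFP-positive supernatant inconsistently, and in one place that name would fall on the library titled as adult negative 1. With that library as the supernatant, the ratio of Gli2 would be 10.5 and that of Ptch1 1.94. The ratios of Gli1 (0.168), Gli3 (9.91), Smo (0.516) and Sufu (0.763) would move less.

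For Gli2 and Gli3 the ratios of the tagged pool (33.0 and 11.3) fell within the range of the untagged pools paired by title (26.2 to 76.3 and 9.43 to 32.9). With the library titled adult negative 1 as the tagged pool's supernatant, its Gli2 ratio of 10.5 was below that range. Their levels in the tagged IP, 15.6 and 26.4 CPM, were just below the lowest negative IP (15.9 and 26.9 CPM, both adult pool 2). Smo in the tagged IP was also below all 5 negative IPs (13 to 46.5 CPM). Fitted against the adult negative IPs, the log2 difference was -0.77 (SE 0.57) for Gli2, -0.33 (SE 0.52) for Gli3 and -1.15 (SE 0.86) for Smo. It was -1.19 (SE 1.01) for Sufu, 0.15 (SE 1.12) for Ptch1 and -0.66 (SE 3.14) for Gli1. These differences are given with no test, since the comparison uses the same negative IP libraries as the one that chose the members. In this comparison of 1 library with 2, edgeR called 0.00603% of the genes tested, which is 1 gene, Gnrh1 (DESeq2 called 210).

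Age was compared in the supernatants of 10 pools, of which 5 are the negative supernatants used in the comparison that chose the members. Among the new pools age and genotype change together, and only the prior pools share a genotype across ages. None of the 6 genes passed the threshold between adult and young, where 9.42% of all genes did (edgeR with a term for prior or new pools). Gli2 ranged from 0.458 to 1.31 CPM in 5 young pools (median 1.12) and from 0.473 to 1.48 CPM in 5 adult pools (median 0.591). The log2 difference, adult minus young, was -0.32 (SE 0.44, adjusted p = 0.702). Gli3 ranged from 1.60 to 3.36 CPM (median 2.41) in young and from 0.808 to 2.85 CPM (median 2.33) in adult pools, a log2 difference of -0.28 (SE 0.31, adjusted p = 0.628). For Gli1 the ranges were 1.13 to 2.76 CPM in young and 0.880 to 2.70 CPM in adults, a log2 difference of 0.14 (SE 0.37, adjusted p = 0.862). Young and adult values overlapped for all 3 factors.

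Ptch1 gave the largest of the age differences, at 0.34 on the log2 scale (SE 0.23, adjusted p = 0.384), with 2.90 to 5.92 CPM in young and 4.88 to 8.16 CPM in adult pools. Smo lay between 7.29 and 22 CPM in young and between 10.5 and 12.7 CPM in adult pools, a log2 difference of -0.11 (SE 0.19, adjusted p = 0.776). Sufu lay between 3.09 and 9.24 CPM in young and 4.07 and 8.59 CPM in adult pools, a log2 difference of 0.19 (SE 0.26, adjusted p = 0.703).

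The 4 prior pools, sequenced in both sets, showed how far a level moved when the same RNA was sequenced again. Smo was lower in the second set in 4 of 4 pools: 13.2 against 8 and 10.5 against 7.29 CPM in the young pools, and 17.4 against 10.7 and 11.5 against 10.5 CPM in the adult pools (first against second set). Its log2 difference, second minus first, was -0.54 (SE 0.12, adjusted p = 0.00343, edgeR with the pool as a block), and without the replicate block it kept its size but not the call (-0.54, adjusted p = 0.121). Of all genes tested, 31.1% were called between the sets, so 1 of 6 members is no more than the background share. The summed level of the 12 astrocyte markers was also lower in the second set, 1298 to 1343 CPM against 1411 to 1512 CPM. The RNA of each pool was the same in both sets. Of these markers 1 was called higher and 3 lower (33.3%), and 8 were not called. The cause of the Smo difference between the sets was not tested.

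The other 5 members did not pass between the sets. Gli2 went down in 3 of 4 pools and from 0.725 to 1.12 CPM in the other (log2 difference -0.31, SE 0.43). Gli1 in 1 young pool went from 0.668 to 1.42 CPM, a ratio of 2.12 between sequencing runs of the same RNA, while its log2 difference over the pools was -0.02 (SE 0.32).

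**Figure D4:**
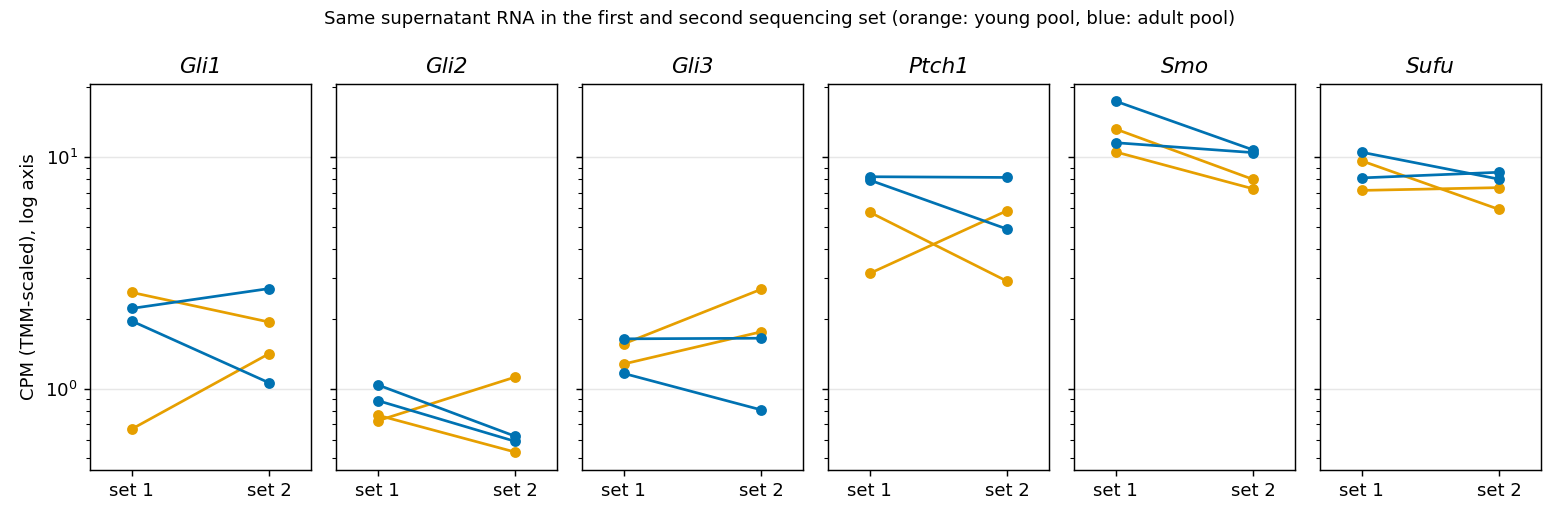
For each gene, lines join the CPM (log axis) of the same prior pool's supernatant in the first and second sequencing set, orange for young and blue for adult pools. All 4 lines of Smo go down, while those of the other genes cross or go in both directions.

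Smo was also lower in the prior than in the new pools of the second set, 7.29 to 10.7 CPM against 11.5 to 22 CPM. The log2 difference was -0.68 (SE 0.20, adjusted p = 0.0397, edgeR). All prior pools have the GFP-positive genotype, and all new pools but the GFP-positive one lack the tag. Origin can thus hardly be told apart from genotype here. In this comparison 12.6% of all genes were called. With the first-set libraries of the same pools, where Smo stood at 10.5 to 17.4 CPM, the difference was -0.12 (adjusted p = 0.662). Leaving out 1 library in turn ended the call in 7 of the fits, so that it rests on the second set and on single libraries. The other 5 members were not called, and Gli3 came next with a log2 difference of -0.61 (SE 0.32, adjusted p = 0.210).

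Around these 6 genes, 61 further genes of the pathway from 7 lists were in the table and 60 were tested between negative IP and supernatant. Of these, 13 rose and 6 fell, so that 31.7% were called, near the 32.1% of all genes, and 21.7% rose, against 15.8% of all genes. The median log2 fold change of the 60 was 0.25, and that of all genes tested -0.03. Leaving out the supernatant of adult pool 1 or that of adult pool 2 brought the number called to 12.

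The ligands were low and did not pass. Shh, the ligand made by neurons, held 0.749 to 9.42 CPM in the negative IPs and 6.19 to 9.97 CPM in the supernatants (log2 fold change -0.43, SE 0.55, adjusted p = 0.622, edgeR). Ihh was at 0 in at least 3 of the 5 negative IPs and Dhh likewise, and their supernatant levels were at most 0.763 and 0.750 CPM. Of 6 genes for ligand acylation and release, 1 rose: Disp2, a relative of the ligand-releasing protein Disp1, from 76.1 ± 9.79 to 206.7 ± 23.4 CPM (SD, n = 5, log2 fold change 1.36, SE 0.10). Of 7 receptors, co-receptors and decoys, 1 rose, the ligand decoy Hhip, from 4.61 ± 1.00 to 9.52 ± 4.70 CPM (SD, n = 5, log2 fold change 1.06, SE 0.31).

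Of 17 cilium and relay genes, 5 rose and 1 fell. Those that rose were Arl13b, a ciliary GTPase (log2 fold change 1.33, SE 0.22), the retrograde motor Dync2h1 (1.19, SE 0.14), the anterograde motor subunits Kif3b (0.86, SE 0.23) and Kif3a (0.80, SE 0.10), and Ift172. Kif7, the kinesin that acts with the GLI proteins at the cilium tip, did not pass (-0.07, SE 0.42). Of 12 GLI kinases and ubiquitin ligases, 2 rose and 3 fell. The 3 that fell were subunits of protein kinase A, whose phosphorylation starts the processing of Gli3, led by Prkaca (507.0 ± 96.6 CPM in the supernatant and 298.8 ± 44.4 in the IP, SD, n = 5, log2 fold change -0.77, SE 0.08).

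Of 7 target genes tested, 3 rose: Mycn, a proliferation factor (log2 fold change 1.88, SE 0.39), the survival factor Bcl2 (1.09, SE 0.26) and the cyclin Ccnd2. Among 8 relatives of the GLI factors, Glis2 rose (1.04, SE 0.33), and Zic2 (-1.39, SE 0.35) and Zic1 (-0.96, SE 0.26) fell. A family of zinc-finger factors related to the GLI genes thus held members that went each way. The highest adjusted p among the genes named here as risen or fallen was 0.0365, for Ift172 (edgeR).

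**Figure D5:**
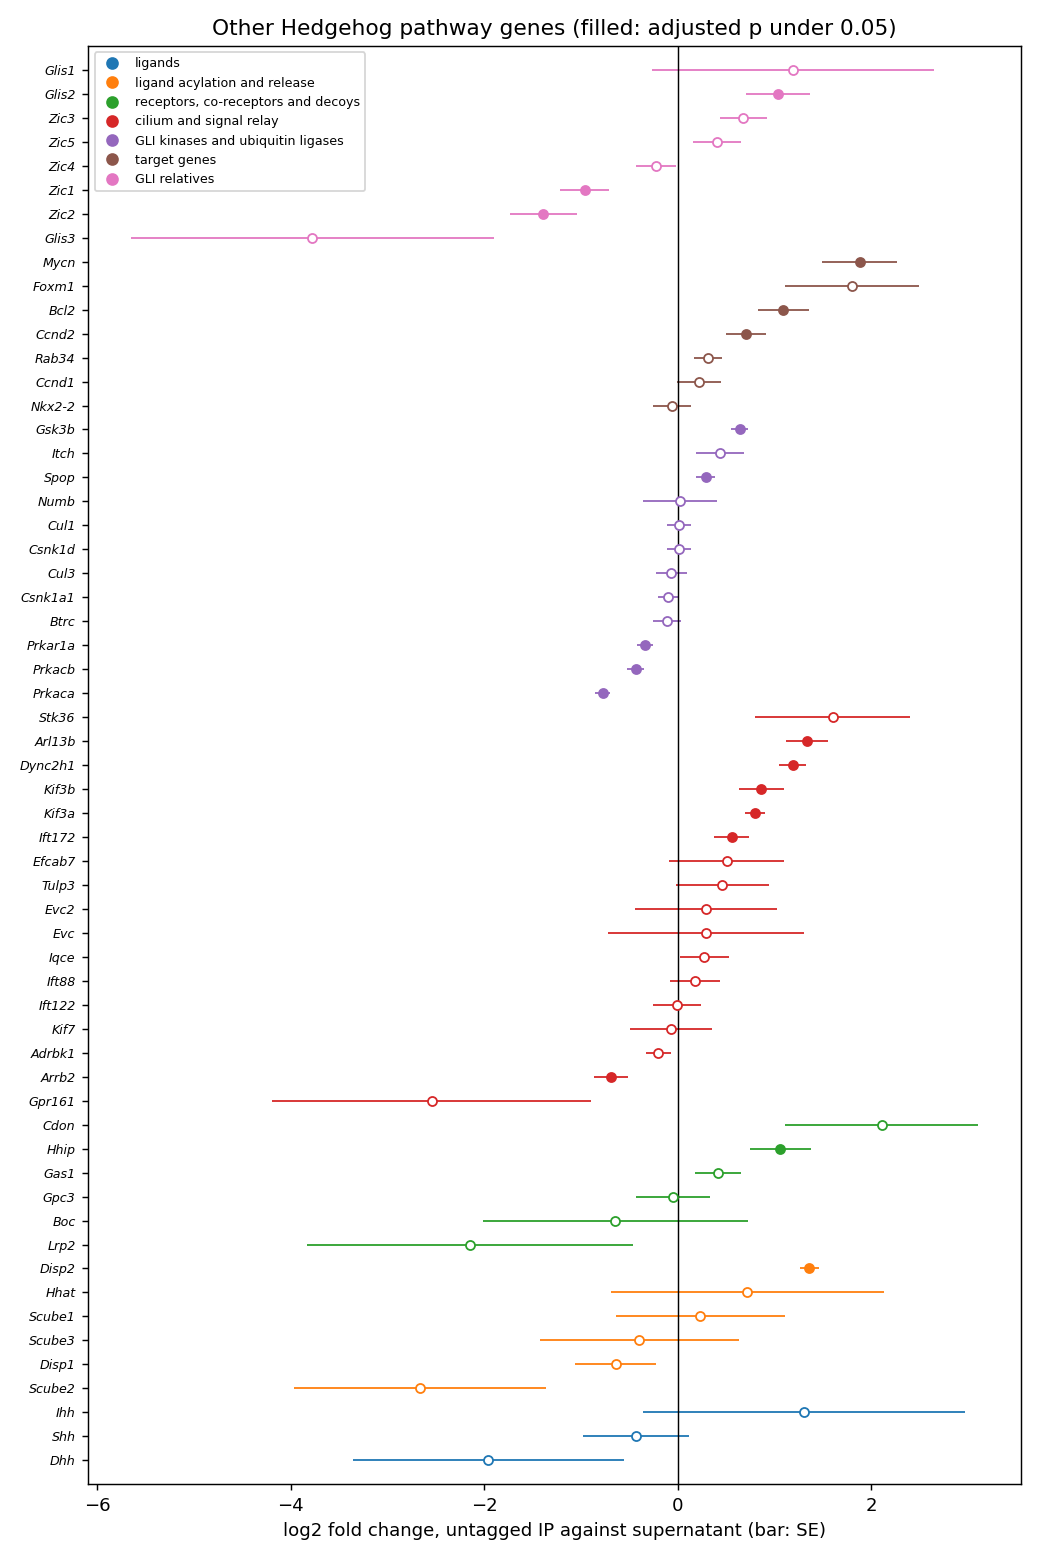
For 59 of the other pathway genes tested, the log2 fold change between untagged IP and supernatant is plotted with its SE, coloured by list and filled where the adjusted p is under 0.05. The filled genes lie between -1.39 (Zic2) and 1.88 (Mycn), and low-count genes such as Dhh and Glis3 have wide bars.

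In the age comparison of the supernatants, 5 of 58 pathway genes were called, 8.62% against 9.42% of all genes. As above, age and genotype change together among the new pools. Gpc3, a glypican that binds Hedgehog ligands, was higher in adults (log2 difference 0.41, SE 0.12), as was the ligase subunit Btrc (0.28, SE 0.07). The target Nkx2-2 (-0.43, SE 0.12), Rab34 (-0.39, SE 0.10) and Prkaca (-0.30, SE 0.08) were lower, and the highest adjusted p of these 5 was 0.0484, for Gpc3 (edgeR). This count fell to 0 when the origin term was left out or when new or prior pools were used alone. The counts for the sequencing set (8 higher and 11 lower of 60, 31.7%) and for the origin of the pools (5 and 5 of 58, 17.2%) compare with background shares of 31.1% and 12.6%.

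Markers of other cell types were compared between the negative IPs and supernatants in the same way, with 32.1% of all genes called and 15.8% called higher in the IP. Of 12 astrocyte markers 3 rose, Aldh1l1 (log2 fold change 0.91, SE 0.22), Slc7a10 (0.90, SE 0.31) and Slc1a2 (0.79, SE 0.26). Of 5 markers of oligodendrocyte precursors, Cspg4 (1.71, SE 0.41) and Pdgfra (0.80, SE 0.27) rose and 3 were not called. The summed level of all 5 was 81.1 to 149 CPM in the IPs and 59.9 to 82.3 CPM in the supernatants. Of 6 neuronal markers, the vesicle protein gene Syt1 rose (0.58, SE 0.09), and Snap25 (-0.55, SE 0.09) and Stmn2 (-0.55, SE 0.08) fell. The summed level of the 6 was 3587 to 4326 CPM in the IPs and 4512 to 5022 CPM in the supernatants. Snap25 alone made up 1625 to 2131 CPM in the IPs, so the sum largely follows this gene. The median log2 fold change of the 6 was 0.11, against -0.03 for all genes, and 3 of them were not called.

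Of 8 microglial markers, 2 fell. Siglech held 0 to 0.118 CPM in the negative IPs and 2.69 to 4.58 CPM in their supernatants, and C1qa 4.78 to 8.17 against 8.32 to 20.9 CPM (log2 fold change -0.99, SE 0.26). The summed microglial level was 68.6 to 108.5 CPM in the IPs and 77.7 to 121.8 CPM in the supernatants. Of 8 oligodendrocyte markers, Cldn11 fell (-1.25, SE 0.36), and the summed level overlapped between IPs (2872 to 7636 CPM) and supernatants (3325 to 6750 CPM). No call was made among 5 ependymal and tanycyte, 6 endothelial, and 6 fibroblast and meningeal markers. The highest adjusted p among the markers named as risen or fallen was 0.0463, for Slc7a10 (edgeR). The part of these cell types in the values of the 6 Hedgehog genes was not tested.

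The levels of the 6 genes were at most weakly related over the supernatants. In the 10 second-set supernatants, the Pearson correlation of log2 CPM between Gli2 and Gli3 was -0.10, and over all 15 pairs of members it lay between -0.36 (Gli2 with Sufu) and 0.40 (Gli1 with Gli2). In the 6 IPs Gli2 and Gli3 had the same rank order (Pearson correlation 0.83), from young pool 2 at the top to the GFP-positive pool at the bottom. These values describe 10 and 6 libraries that share their processing and scaling. The genes most like each member over the supernatants, among genes with a mean log2 CPM of at least 3, were Lamc1 and Serpinh1 for Gli3 (correlations 0.90 and 0.88) and Fat3 for Ptch1 (0.91). They were Prkcz for Gli2 (0.86), Nanos1 for Gli1 (0.82), E2f4 for Smo (0.94) and Plk2 for Sufu (0.95). Each is the highest value picked from all such genes over 10 libraries, so it can arise without any link between the genes. None of these correlations was tested.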

How the data were processed

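The values are read counts per gene symbol as deposited, without scaling by the authors. Tools in the submitters' processing notes are HTSeq 0.6.1, TopHat2 2.0.13 and Bowtie2 2.2.1 on mm10, besides FastQC 0.11.3, DESeq2 1.14.1, Cuffdiff 2.1.1 and Cufflinks, with no role given. Per the labels' protocols, polyA RNA was made into libraries with SMARTer v4 Ultra low. The annotation and the strand setting are not given in the sources used here. Groups follow the sample titles, and replicates are pools of mice.

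Counts were tested with edgeR 4.0.16 in R 4.3.3 (quasi-likelihood, TMM scaling, filterByExpr with a minimum count of 10, Benjamini-Hochberg over all genes tested, threshold 0.05). The SE is the log2 fold change divided by the square root of F. The fits held the 10 negative libraries, 10 second-set supernatants with a term for pool origin, 8 libraries of the prior pools with the pool as a block, and 6 IPs. Scripts were tested on simulated counts. DESeq2 1.42.0 and limma 3.58.1 (voom) were alternatives. The pool number in the titles pairs each IP with its supernatant; deviations of the 2 fractions correlated at 0.103 (adult pools) to 0.285. The descriptions number the adult negative supernatants 2 and 3, not 1 and 2, so the pairing of the adult pools is in doubt. Transcript lengths came from GENCODE M21 for 98.1% of the table's genes, and the trend on length was a loess fit with span 0.3.

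The members and gene lists were chosen with earlier results of these data known. Named pathway genes were the 3 ligands and, per comparison, up to 12 genes past the threshold with the largest log2 fold change and a mean log2 CPM of at least 1. Kif7, Ift172, Ccnd2 and the marker genes fall outside this rule and were named after their values were seen. No protein sequence was used here, and 1 pathway gene, kept in the counts, is not reported here.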

Additional observations from a re-analysis of the deposited data

Results flagged for a closer look

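The 6 genes were examined in 6 groups of 4 or 5 libraries each, 36 in all. In 6 of these, a library's gap to the next one was above the 95% critical value of Dixon's test. Chance alone flags about 1 in 20 separate groups, but these groups share libraries and some mix ages. Among the negative IPs, young pool 1 stood out for Gli1 (3.12 CPM, the others 0.0401 to 0.806) and for Smo (46.5 CPM, the others 13 to 14.5), and adult pool 2 stood out for Gli2 (15.9 CPM, the others 34.9 to 41.4). Among the adult second-set supernatants, the one titled adult negative 1 stood out for Gli2 (1.48 CPM, the others 0.473 to 0.622) and adult negative 2 for Sufu (4.07 CPM, the others 7.54 to 8.59). The supernatant of adult negative 1 is also the deepest library, at 50.52 M counts. Among the repeats of the prior pools in the second set, young pool 1 stood out for Gli2 (1.12 CPM, the others 0.531 to 0.622).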

How the results depend on the processing

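Across 19 settings, the log2 values of Gli2 (4.49 to 5.54) and Gli3 (3.31 to 4.17) between IP and supernatant kept their direction and size. Both genes were chosen for high counts in these same IPs, so nothing is read from this stability. The low ends are differences from the trend on length, not fitted fold changes. Fits without single libraries gave 4.61 to 5.49 for Gli2 and 3.835 to 4.17 for Gli3. The adult values of both genes also kept their direction, and exchanging the supernatants titled TAneg1 and TApos1 gave 5.80 for Gli2 in adults. With the pool as a replicate block, 4970 genes in place of 5246 and 18 pathway genes in place of 19 were called, and Gli2 had 5.09 and Gli3 4.01; it changed no other call. With the adult supernatants paired the other way in the block, chosen after the data were seen, 4613 genes and 17 pathway genes were called, Gli2 had 5.04 and Gli3 4.00; in that pairing the IP to supernatant ratio of adult pool 2 turned to 0.986 for Ptch1 and 0.693 for Sufu. Leaving out each library in turn gave 3571 to 5725 genes called in this comparison, 2842 to 4856 in young pools, 285 to 2398 in adult pools, 12 to 20 pathway genes, 0 to 67 genes for the change with age and 0 to 458 for age within the IP. DESeq2 called 2897 genes in adult pools, 118 for the change with age and 1284 for age within the IP (59 with limma voom). For Gli2 the change with age turned to 0.53 with the exchanged titles and ran from -1.31 to 0.51 when libraries were left out.

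For age in the supernatants the 1502 genes became 2257 with DESeq2, 655 with no origin term, 481 in new pools, 11 in prior pools and 723 to 1706 without single libraries. The 5 pathway genes became 2 with library size alone, 8 with DESeq2, 0 with no origin term, in new pools or in prior pools, and 0 to 6 without single libraries. Uncalled member differences changed sign: Gli3 to 0.097 in new pools and 0.044 with the first-set libraries, Smo to 0.47 in prior pools and from -0.22 to 0.076 without single libraries, Gli2 to 0.0010 with the first-set libraries and Gli1 from -0.10 to 0.42 without single libraries. Between sequencing sets, 1155 genes were called with no replicate block and 3651 to 4856 without single pools, where Gli1 ran from -0.33 to 0.25, Ptch1 from -0.56 to 0.032 and Gli3 from -0.0060 to 0.41. The GFP-positive IP against the adult negative IPs gave 210 genes with DESeq2 and 0 to 1 without single libraries, where Sufu ran from -1.88 to 0.16 and Ptch1 from -0.38 to 0.99. When 1 adult library was left out the lone one was assumed to vary like the other groups. The cause of these changes was not tested beyond fewer libraries in the fits that leave some out.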
